A study of Mus musculus with 2 samples.

Results

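The genes followed here across the cells of the mouse neurohypophysis (NH), the neural lobe of the pituitary, were *Rax*, *Tbx3*, *Tbx3os1*, *Lhx2*, *Nkx2-1*, *Six3*, *Sox9*, *Nfia*, *Nfib* and *Lmo1*. They are 10 of the 27998 genes in the count matrices, all 10 were found there and in the deposited table of cluster means, and 9 of them encode transcription regulators while *Tbx3os1* is the antisense transcript of *Tbx3*. They were picked as hypothalamic, infundibular and gliogenic regulators whose levels in pituicytes, the resident glia of the NH, were already known from these data. Their levels in pituicytes against the other cell types are therefore a description and carry no test.

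Neurohypophyses of male C57BL/6 mice aged 3 months, without any transgene or treatment, were pooled, dissociated with enzymes and sequenced as single cells with the 10x Genomics Chromium version 2 chemistry. There were 2 pools of 5 mice each, called pool 1 and pool 2 here, and the pools are the replicates of 1 condition. The dissected tissue carried some intermediate lobe (IL), the adjoining endocrine lobe. Counts are of unique molecular identifiers (UMIs), which tag single captured mRNA molecules, and 273 cells of pool 1 and 255 cells of pool 2 were kept, with medians of 2050 and 2330 UMIs.

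The kept cells fell into the 7 types of the authors. These were pituicytes (196 cells), IL cells (148), macrophage/microglia (95), T-cell like cells (42), epithelial-like cells (23), vascular endothelia (13) and vascular and leptomeningeal cells (VLMC, 11). No barcode was shared between the kept cells of the pools. The pituicytes were read for 7 markers, among them *Scn7a* at 1720 CPM (UMIs of a gene per 1000000 UMIs), *Col25a1* at 1670 CPM and *Vegfa* at 538 CPM. The paper named the type with *Vegfa* and *Gja1*, known from earlier work. It took the others, *Scn7a*, *Col25a1*, *Col13a1*, *Srebf1* and *Adm*, from these same clusters. The marker levels therefore describe the label and are not an independent check of it. Summed over the 7 markers, pituicytes held 6860 CPM in pool 1 and 7180 CPM in pool 2, and each of the other types held between 9.27 and 662 CPM. The 4 markers of IL cells summed to 4140 and 3240 CPM in pituicytes against 126000 and 96000 CPM in IL cells. They summed to 3360 and 4750 CPM in epithelial-like cells, beside 4190 and 3180 CPM for the 4 markers of that type. There *Scg2* (982 CPM) and *Chga* (485 CPM) were nearer to IL cells (1070 and 901 CPM) than *Pcsk2* (76.5 against 4680 CPM) and *Pomc* (2870 against 105000 CPM). RNA of IL markers was thus present in pituicyte and epithelial-like barcodes, and its part in the levels below was not tested.

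As background, the NH grows out of the floor of the hypothalamus, the infundibulum, while the IL and the anterior lobe come from oral ectoderm. *Rax*, a homeobox gene of the eye field and the ventral hypothalamus, *Nkx2-1*, *Lhx2*, *Six3* and *Tbx3* act in patterning the ventral forebrain and the infundibulum, and *Rax* is also known from tanycytes, the glia that line the floor of the third ventricle. *Sox9*, *Nfia* and *Nfib* act in the switch of neural progenitors to glia. *Lmo1* encodes a LIM-only protein that binds other regulators and not DNA.

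In the mouse genome (GRCm38, GENCODE M21), *Tbx3* lies on the plus strand of chromosome 5 at chr5:119670669-119684724. *Tbx3os1* lies on the minus strand at chr5:119570130-119671365, so that the genes are arranged head to head. They overlap by 697 bases, of which 115 are exonic in both, and their start sites are 696 bases apart. Whether the counting used strand is not given in the sources used here, and without it UMIs of the overlapping stretch cannot be told apart. The other overlapping genes held few UMIs, except *Gm11266*, antisense to *Nfib* and without exonic overlap, which held 90 UMIs, 69 of them in pituicytes.

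RefSeq promoter sequences (GRCm38.p6, 250 bases before to 50 after a start site) were at hand for 6 of the 10 genes. They are shown for *Tbx3os1*, which had most UMIs of the 10 in pituicytes, for *Lmo1* and *Nkx2-1* as further genes found mainly in pituicytes, and for *Six3* as a gene found in several types. RefSeq and GENCODE place some of these start sites differently. Capitals mark the motifs searched on both strands, which were TAATTA (homeobox core), AGGTGTGA (T-box), TTGGCA (nuclear factor I, NFI) and ACAATG (SOX). The windows are chr5:119671459-119671758 (minus strand), chr7:109175158-109175457 (minus strand), chr12:56536859-56537158 (minus strand) and chr17:85620584-85620883 (plus strand).
Tbx3os1: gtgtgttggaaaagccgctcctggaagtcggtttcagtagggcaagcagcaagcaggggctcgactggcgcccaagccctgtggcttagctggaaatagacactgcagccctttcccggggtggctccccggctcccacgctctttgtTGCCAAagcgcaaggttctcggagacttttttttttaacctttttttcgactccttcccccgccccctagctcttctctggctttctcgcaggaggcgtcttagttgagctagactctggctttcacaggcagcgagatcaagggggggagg
Lmo1: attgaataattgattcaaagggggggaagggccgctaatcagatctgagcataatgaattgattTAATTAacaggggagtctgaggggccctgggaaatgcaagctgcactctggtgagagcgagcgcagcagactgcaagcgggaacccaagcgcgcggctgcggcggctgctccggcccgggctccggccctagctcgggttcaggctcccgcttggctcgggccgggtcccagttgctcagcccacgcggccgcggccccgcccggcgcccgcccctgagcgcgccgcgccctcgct
Nkx2-1: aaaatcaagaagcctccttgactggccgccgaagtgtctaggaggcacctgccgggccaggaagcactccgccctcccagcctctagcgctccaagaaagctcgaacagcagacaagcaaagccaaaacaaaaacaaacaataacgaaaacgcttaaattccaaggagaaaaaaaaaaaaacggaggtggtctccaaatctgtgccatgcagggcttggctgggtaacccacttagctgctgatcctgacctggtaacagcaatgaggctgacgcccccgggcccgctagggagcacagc
Six3: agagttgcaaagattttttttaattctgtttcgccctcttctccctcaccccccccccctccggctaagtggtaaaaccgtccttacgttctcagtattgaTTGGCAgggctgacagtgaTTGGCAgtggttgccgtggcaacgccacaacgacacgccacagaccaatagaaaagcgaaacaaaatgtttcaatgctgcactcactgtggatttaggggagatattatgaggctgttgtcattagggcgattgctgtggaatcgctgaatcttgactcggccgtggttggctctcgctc

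The *Tbx3os1* window held 1 NFI motif, on the strand opposite to the printed one and starting at position -102 from the start site. The *Six3* window held 2 NFI motifs, the first at -149, and the *Lmo1* window held 1 homeobox core at -186. The *Nkx2-1* window held none of the 4 motifs. Of 32851 RefSeq promoters of the same length, 14.1% held the NFI motif, 5.29% the homeobox core, 12.6% the SOX core and 1.28% the T-box motif. These matches are letters in a window and were not measured as binding.

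*Rax*, *Tbx3*, *Tbx3os1*, *Lhx2* and *Nkx2-1* were found almost only in pituicytes. *Rax* stood at 331 CPM in pool 1 and 288 CPM in pool 2 in pituicytes. It held 3 UMIs in all other cells together, 2 in IL cells and 1 in macrophage/microglia. *Lhx2*, a LIM homeobox gene, stood at 199 and 213 CPM, with 2 UMIs outside the pituicytes.

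*Nkx2-1* stood at 289 CPM in pool 1 and 229 CPM in pool 2, with 1 UMI outside the pituicytes, in a VLMC of pool 2. In IL cells it held 0 UMIs, which made its level in pituicytes at least 45.6-fold higher against the limit of 3 counts over both pools. *Tbx3* stood at 369 and 233 CPM, with 1 UMI outside the pituicytes, and *Tbx3os1* at 819 and 671 CPM, with 4. For each of these 5 genes the measured levels of both pituicyte pools lay above those of every other type. The small sums of VLMC and vascular endothelia say little here, since the limit of 3 counts for a pool was 353 and 199 CPM in VLMC and 264 and 240 CPM in vascular endothelia, near the levels in pituicytes. All 5 were found in 0 of the 23 epithelial-like cells, and this number of cells allows a share with a UMI of up to 13.0% (3 counts).

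**Figure D1:**
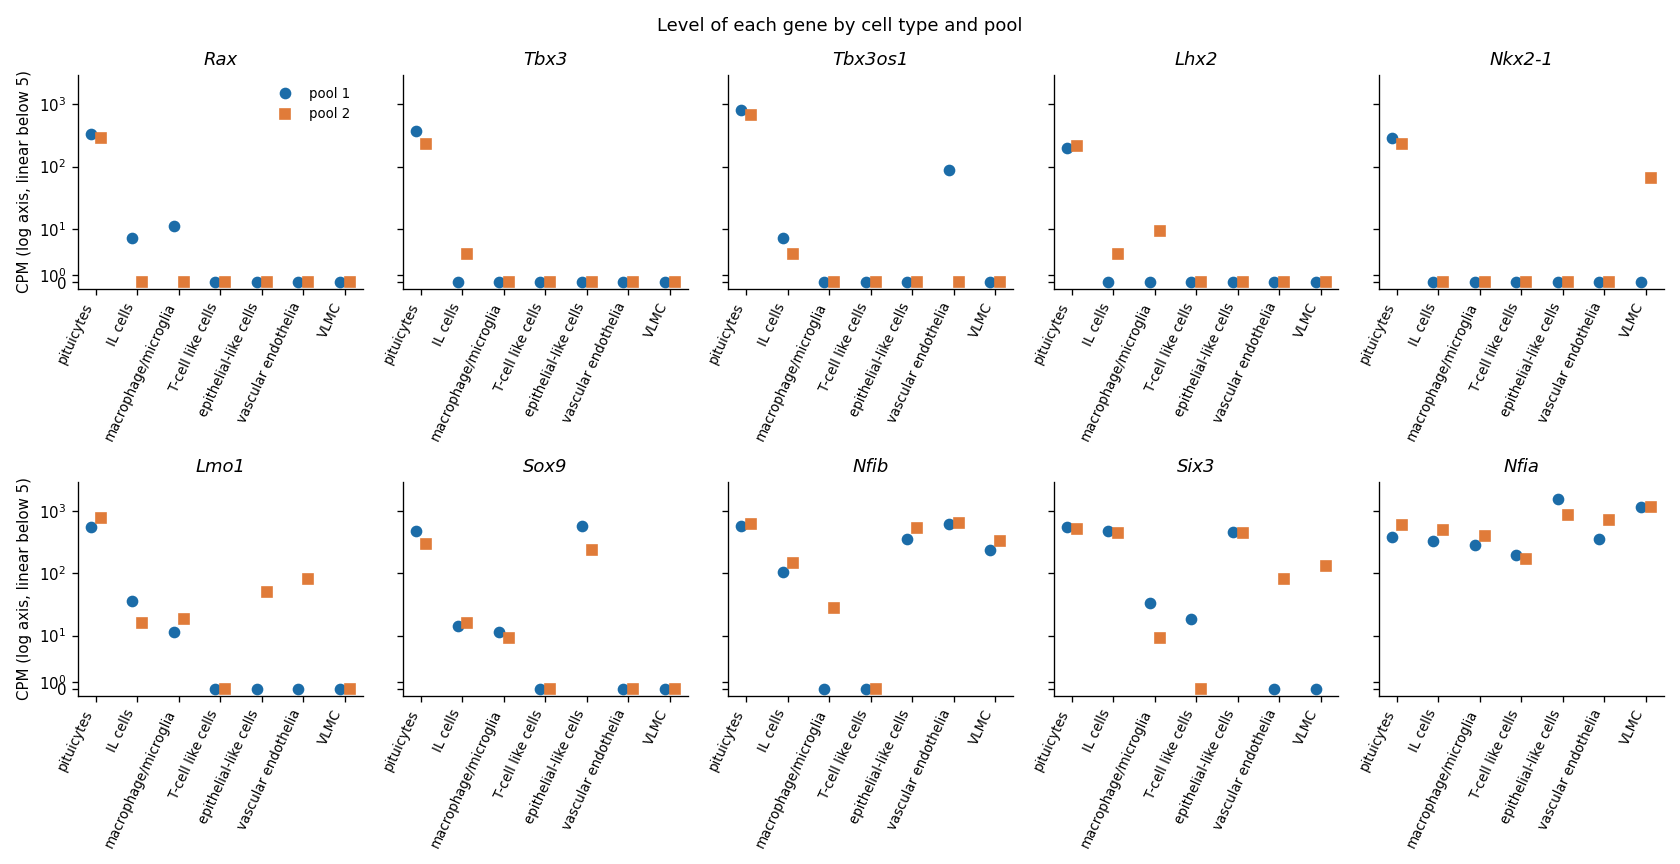
Level of each of the 10 genes (y axis, CPM on a log axis that is linear below 5) in the 7 cell types (x axis), with circles for pool 1 and squares for pool 2. *Rax*, *Tbx3*, *Tbx3os1*, *Lhx2* and *Nkx2-1* are high in pituicytes and at or near 0 elsewhere, whereas *Six3* is alike in pituicytes, IL cells and epithelial-like cells and *Nfia* is present in all 7 types.

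*Lmo1* was the next most restricted gene. It stood at 552 CPM in pool 1 and 781 CPM in pool 2 in pituicytes, and at 35.6 and 16.0 CPM in IL cells. Its ratio of pituicytes to IL cells was 25.4 (95% interval 14.9 to 47.0, counting error only). Only 3 of its UMIs were in epithelial-like cells.

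*Sox9*, a regulator of gliogenesis that is also used in many epithelia, was high in 2 types. It stood at 488 and 300 CPM in pituicytes and at 569 and 237 CPM in epithelial-like cells, whose ranges overlapped. IL cells held 14.2 and 16.0 CPM, and the ratio of pituicytes to IL cells was 25.9 (12.9 to 60.9). In cells with a mitochondrial share under 10%, the mean *Sox9* level in pituicytes was 214 CPM against 394 CPM in all pituicytes. This limit left out most cells of pituicyte clusters b and c, described below, whose median shares were 17.0 and 20.7%. The median share of cluster a was 9.9%, next to the limit, and cluster a as a whole held *Sox9* at 449 and 275 CPM. The part of the clusters in the levels under this limit was not tested. The same limit moved the means of 5 others of the 10 by more than the SD between pools, *Lhx2* to 140 from 206 CPM, *Tbx3os1* to 631 from 745, *Six3* to 439 from 538, *Rax* to 261 from 309 and *Nfib* to 562 from 604.

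*Nfib* stood at 577 CPM in pool 1 and 631 CPM in pool 2 in pituicytes. Vascular endothelia held 617 and 641 CPM, so the pools of these types overlapped. Epithelial-like cells held 362 and 541 CPM, IL cells 107 and 148 CPM, and T-cell like cells 0 UMIs.

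*Six3*, a homeobox gene of the anterior forebrain and the pituitary, did not separate pituicytes from the cells of the IL. It stood at 560 and 517 CPM in pituicytes, 480 and 449 CPM in IL cells, and 466 and 440 CPM in epithelial-like cells. The pituicyte pools were the highest, and the ratio to IL cells was 1.16 with an interval that held 1 (0.968 to 1.38). Macrophage/microglia held 33.8 and 9.27 CPM, so *Six3* was low in the immune types.

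*Nfia* was found in every type. Epithelial-like cells (1600 and 863 CPM) and VLMC (1180 and 1190 CPM) were the highest, and pituicytes stood at 390 and 604 CPM. The 11 VLMC also held 4 oligodendrocyte markers at a summed 18100 and 16900 CPM, above their 3 VLMC markers at 13500 and 6230 CPM, and their part in the *Nfia* level was not tested. In the order of means, vascular endothelia, pituicytes, IL cells and macrophage/microglia followed, and the range of each overlapped that of the next. T-cell like cells held 200 and 172 CPM, on 11 and 5 UMIs. Their level over both pools was 190 CPM, with an interval of 109 to 309 CPM. That interval held the 247 CPM that *Nfia* had in the near-empty barcodes of pool 1. The IL marker *Pomc* stood at 15700 CPM in those barcodes and at 548 CPM in T-cell like cells. The part of free RNA in their *Nfia* level was not tested.

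In all, pituicytes held 34.3% of all UMIs of the kept cells. They held 99.3% of the *Tbx3* UMIs, 99.2% for *Nkx2-1*, 98.9% for *Tbx3os1*, and 98.1% for both *Rax* and *Lhx2*. The share was 94.0% for *Lmo1*, 84.5% for *Sox9*, 69.3% for *Nfib*, 47.6% for *Six3* and 36.7% for *Nfia*.

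**Figure D2:**
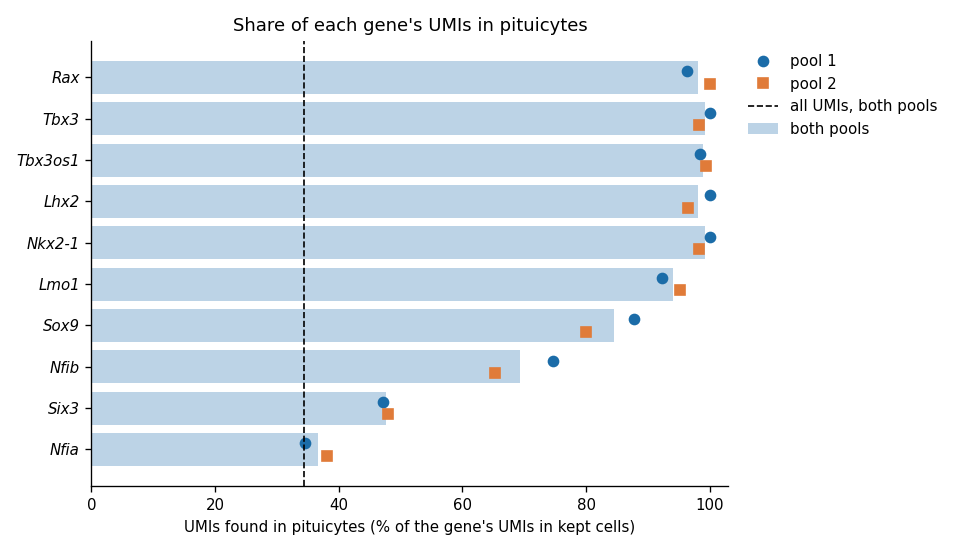
Share of each gene's UMIs in kept cells that lay in pituicytes (x axis, percent), with bars for both pools, circles for pool 1, squares for pool 2 and a dashed line at the share of all UMIs (34.3%). The shares run from 99.3% for *Tbx3* down to 36.7% for *Nfia*, which lies next to the line.

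Counts summed per pool and type were fitted across all genes with edgeR's quasi-likelihood test, and calls needed an adjusted p no higher than 0.05 with a natural log change of 1 or more. Against the mean of the other 6 types, 756 of 4510 genes (16.8%) were called higher in pituicytes and 43 (0.953%) lower. That mean was taken over the log levels of the 6 types, each with equal weight. Types with few or 0 UMIs of a gene therefore raise its fold change. All 10 genes passed the filter on low counts, and 9 were called higher, all but *Nfia*. The genes were chosen on this contrast, so nothing is read from that count. The fitted log2 fold change was 8.11 (SE 0.49) for *Tbx3os1*, 7.21 (SE 0.61) for *Rax*, 3.08 (SE 0.36) for *Six3* and 0.22 (SE 0.27) for *Nfia*. The median over all 10 genes was 6.45, beside 0.59 for all genes tested. With genes at 0 UMIs in other types these values depend on the small count that edgeR adds. For *Six3*, the plain ratio of CPM in pituicytes to all other cells together was 1.74, beside the fitted log2 fold change of 3.08.

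Against IL cells alone, 452 genes (10.0%) were called higher and 303 (6.72%) lower. Of the 10 genes 8 were called higher, all but *Six3* (log2 fold change 0.10, SE 0.32) and *Nfia* (0.16, SE 0.33). The choice of the genes used their pituicyte levels, so nothing is read from this count either. In DESeq2, another count test, *Rax*, *Tbx3* and *Nkx2-1* were not called in either contrast and *Lhx2* was not called against the other types. Its log2 fold changes against the other types were 5.49 for *Rax*, 5.87 for *Tbx3*, 5.07 for *Lhx2* and 5.66 for *Nkx2-1*. The sign for *Nfia* against the other types also depended on scaling, at -0.03 with library size alone.

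How often the genes were detected in single pituicytes was counted in cells cut down by random draws to 1000 UMIs each. *Tbx3os1* was detected in 49.0% of the 196 pituicytes, *Lmo1* in 43.9%, *Nfib* in 41.3%, *Nfia* in 37.8% and *Six3* in 36.7%. *Tbx3* was detected in 29.6%, *Sox9* in 27.6%, *Rax* in 26.0%, *Nkx2-1* in 21.9% and *Lhx2* in 18.9%. Without thinning the shares ran from 37.2% for *Lhx2* to 72.4% for *Tbx3os1*. Of the 10 genes, *Nfia* alone was detected in the thinned T-cell like cells, in 21.4% of them.

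A thinned pituicyte held a mean of 3.43 of the 10 genes in pool 1 and 3.20 in pool 2, against 0.838 and 0.926 in IL cells. Epithelial-like cells held 1.71 and 1.75. Of the pituicytes, 68.9% held 3 or more of the genes, and 8 cells held none. At least 1 of *Rax*, *Tbx3*, *Tbx3os1*, *Lhx2* and *Nkx2-1* was detected in 80.6% of pituicytes, 3.38% of IL cells and 0 of the 23 epithelial-like cells.

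**Figure D3:**
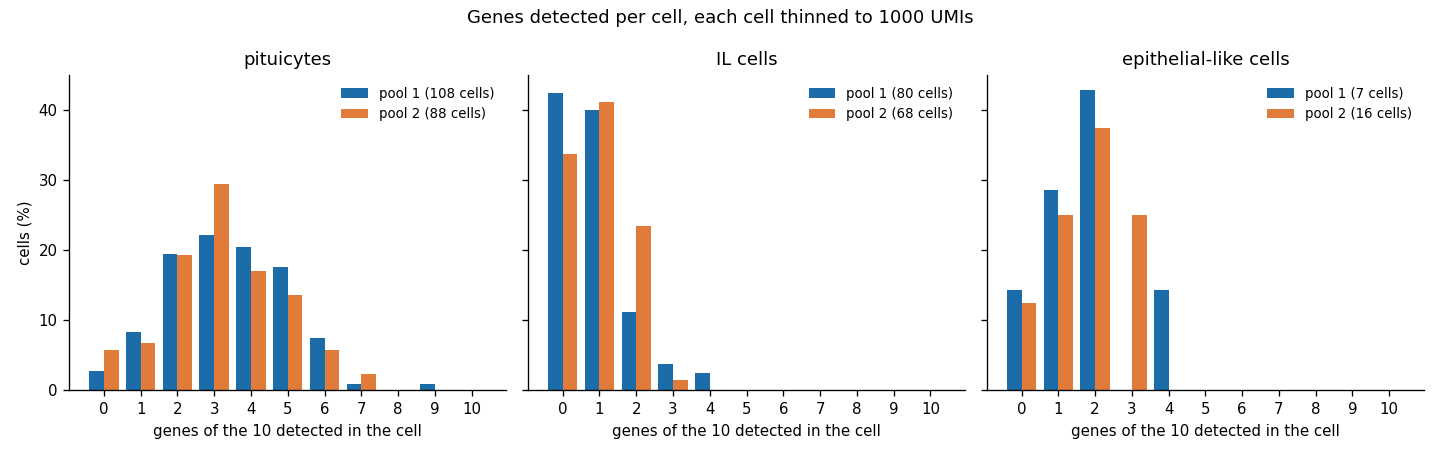
Number of the 10 genes detected in a cell thinned to 1000 UMIs (x axis) against the percent of cells (y axis), for pituicytes, IL cells and epithelial-like cells, with a bar for each pool. Pituicytes held a mean of 3.43 and 3.20 genes in the pools, and IL cells 0.838 and 0.926.

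Detection of the genes in the same pituicytes was compared in pairs. Over the 45 pairs of genes the correlation of detection (phi) in thinned cells lay between -0.13 and 0.15, with a median of 0.02. Before thinning it lay between -0.03 and 0.25, with a median of 0.11, and 35 of the pairs were above 0 in both pools, where cells with more UMIs have more of every gene. These are sparse counts of 196 cells from 2 libraries, and no finding is drawn from them.

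*Tbx3os1* held more UMIs than *Tbx3* in pituicytes, with 193 against 87 in pool 1 and 170 against 59 in pool 2. The UMI ratio was 2.22 in pool 1 and 2.88 in pool 2, and 2.49 in both together (2.05 to 3.03). Without thinning, 78 pituicytes held both transcripts, 64 held *Tbx3os1* alone, 17 held *Tbx3* alone and 37 held neither. These are ratios of UMIs, which the libraries count once for each molecule, and were not divided by transcript length.

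The authors split the pituicytes into 3 clusters, a, b and c, of 87, 55 and 54 cells. Their median mitochondrial shares were 9.9, 17.0 and 20.7%, and their median UMIs 2214, 1452 and 2782. *Tbx3os1* stood at 1040 and 898 CPM in cluster a, at 696 and 236 CPM in cluster b and at 743 and 382 CPM in cluster c. It was the only one of the 10 genes for which both pools of cluster a lay above both pools of the other clusters. The clusters were built on these cells and the part of the mitochondrial share in this order was not tested.

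*Tbx3* did not follow that order, at 463 and 223 CPM in cluster a, 322 and 210 CPM in b, and 335 and 271 CPM in c. *Rax* stood at 304 and 288 CPM in a, 407 and 341 CPM in b, and 307 and 255 CPM in c. The pools of *Rax* in cluster b lay above those of a and c, though the counting intervals of the 3 clusters overlapped. *Nfia* was present in all 3 clusters, between 353 and 629 CPM.

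**Figure D4:**
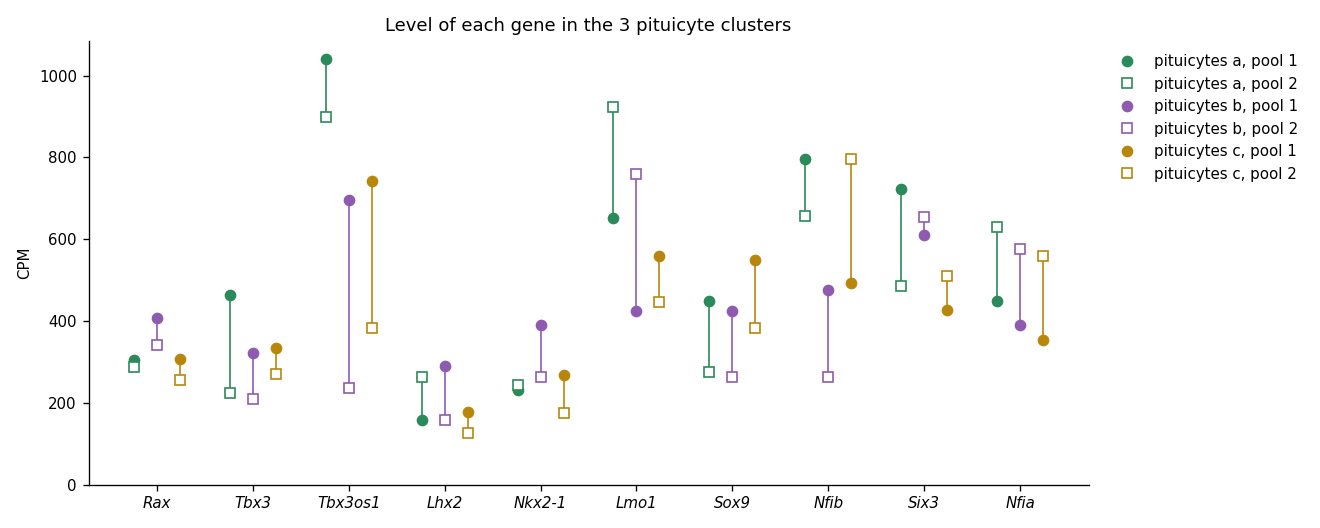
Level of each of the 10 genes (y axis, CPM) in pituicyte clusters a, b and c, with filled circles for pool 1, open squares for pool 2 and a line that joins the pools. *Tbx3os1* is higher in cluster a (1040 and 898 CPM) than in b and c in both pools, and the clusters overlap for most other genes.

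Barcodes that were not kept as cells took no part in the clustering. The markers used to sort them came in part from the clusters of these same data, so the sorting is not independent of the types. Among the 1500 barcodes with most UMIs of each pool, those left out were sorted by the marker genes, into those with at least 3 UMIs of pituicyte markers and none of another type's, and those with at least 3 of another type's markers and none of pituicytes. The IL marker *Pomc* was not used in this sorting, so barcodes with pituicyte markers may hold it. There were 123 barcodes with pituicyte markers and 159 with another type's in pool 1, and 71 and 168 in pool 2. Median UMIs were 667 and 521 in pool 1 and 616 and 570 in pool 2, and median mitochondrial shares were 30.0 and 9.6% in pool 1 and 25.8 and 13.4% in pool 2.

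In pool 1, *Tbx3os1* was found in 37.4% of the barcodes with pituicyte markers and in 0 of the others, and in pool 2 in 19.7% and 0. *Nkx2-1* was found in 18.7% and 0 in pool 1, and in 16.9% and 0 in pool 2. *Rax* was found in 17.9% against 0.629% in pool 1 and in 16.9% against 0 in pool 2. These genes were rare in barcodes with another type's markers in both pools. Those barcodes were required to hold no pituicyte marker, so low shares of such genes there follow in part from the sorting.

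*Six3* was found in 23.6% against 6.92% in pool 1 and in 15.5% against 6.55% in pool 2. *Nfia* was found in 30.9% against 11.9% in pool 1 and in 35.2% against 21.4% in pool 2. The levels of these 2 genes lay nearer to each other than the shares. *Six3* stood at 348 against 303 CPM in pool 1 and 325 against 255 CPM in pool 2. *Nfia* stood at 526 against 458 CPM in pool 1 and 702 against 401 CPM in pool 2. The barcodes with another type's markers are a mixture of types. At least 1 of the 10 genes was found in 86.2% against 23.9% in pool 1 and in 78.9% against 27.4% in pool 2. Another 912 barcodes of pool 1 and 990 of pool 2 held fewer than 3 marker UMIs of each type. In these, with medians of 360 and 334 UMIs, at least 1 of the 10 genes was found in 20.2 and 20.3%. *Rax* was found in 2.63 and 0.707% of them. A barcode is not a replicate, and no test was made between these groups.

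**Figure D5:**
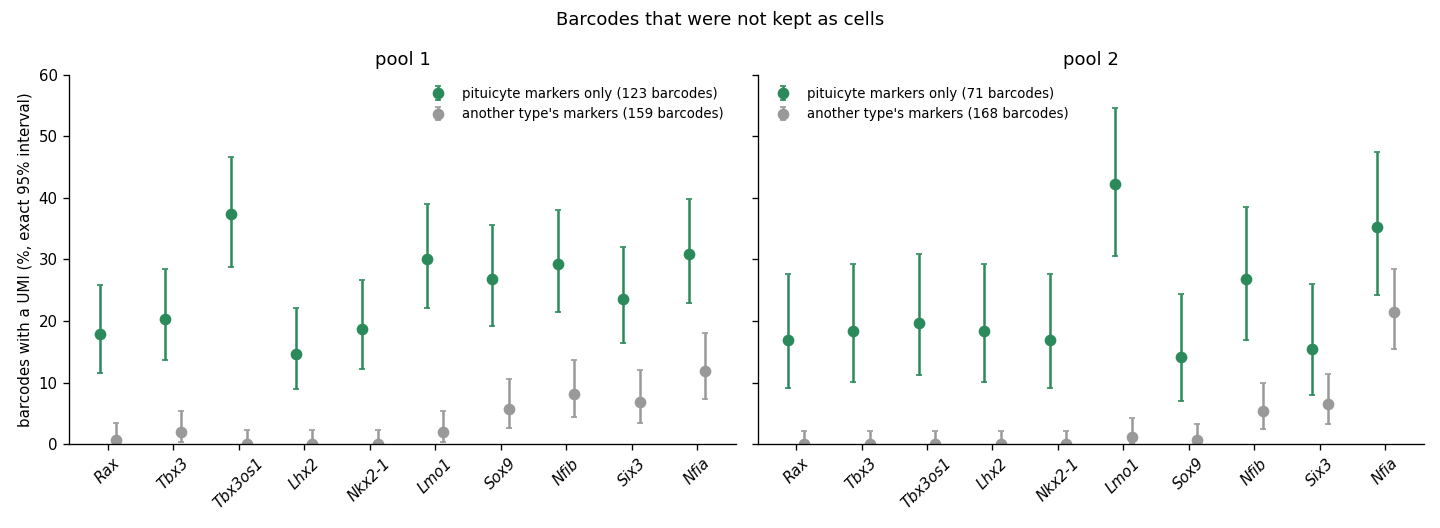
Percent of barcodes with a UMI of each gene (y axis, with exact 95% intervals) among barcodes not kept as cells, for those with pituicyte markers only and those with another type's markers, in pool 1 (left) and pool 2 (right). *Tbx3os1*, *Lhx2* and *Nkx2-1* were in 0 barcodes with another type's markers in both pools.

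Free RNA was also read in 157608 near-empty barcodes of pool 1, with 1 to 50 UMIs each. *Rax* stood there at 43.3 CPM against 116 CPM over all kept cells of the pool, and *Tbx3os1* at 45.4 against 280 CPM. *Nfia* stood at 247 against 380 CPM, and *Lmo1* at 114 against 202 CPM. All 10 genes were thus lower in near-empty barcodes than in all kept cells of the pool, pituicytes included. In the kept cells of pool 1 other than pituicytes, *Rax* stood at 6.47 CPM, *Tbx3os1* at 6.47 CPM and *Lmo1* at 23.7 CPM, below the near-empty barcodes. *Tbx3*, *Lhx2*, *Nkx2-1* and *Sox9* were also lower in those cells, while *Six3*, *Nfia* and *Nfib* were higher in them.

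The families of these genes differed between the types. Of the T-box genes, *Tbx2*, a close relative of *Tbx3*, stood at 72.1 and 51.3 CPM in pituicytes, and *Tbx19*, the regulator of *Pomc* in endocrine cells, at 4.24 and 7.89 CPM in pituicytes and 146 and 120 CPM in IL cells. *Lhx3*, the LIM homeobox gene of the oral ectoderm, held 0 UMIs in pituicytes and stood at 46.2 and 40.1 CPM in IL cells. *Nkx2-1* was the only one of 7 *Nkx2* genes with at least 20 UMIs in the kept cells.

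*Six6* stood at 4.24 and 7.89 CPM in pituicytes, 167 and 140 CPM in IL cells and 518 and 288 CPM in epithelial-like cells.

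Of the *Sox* genes, *Sox1* had all its 20 UMIs in pituicytes. *Sox2*, a progenitor gene, stood at 191 and 142 CPM in pituicytes and 414 and 237 CPM in epithelial-like cells. *Sox5* stood at 106 and 107 CPM in pituicytes, *Sox11* at 72.1 and 118 CPM, *Sox8* at 50.9 and 43.4 CPM and *Sox6* at 46.7 and 39.5 CPM. Over both pools epithelial-like cells held *Sox5* at 102 CPM, *Sox11* at 115 CPM and *Sox6* at 63.8 CPM. *Sox8* stood at 127 CPM in VLMC, on 3 UMIs, and IL cells were below pituicytes for each of these genes. *Sox4* was lower in pituicytes, at 93.4 and 75.0 CPM, than in IL cells, at 139 and 240 CPM.

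The NFI genes were all present, with *Nfix* at 395 and 371 CPM and *Nfic* at 144 and 138 CPM in pituicytes. Of the LIM-only genes, *Lmo4* stood at 361 and 430 CPM in pituicytes, and *Lmo2* held 2 UMIs there and stood at 420 CPM in vascular endothelia.

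Wider lists of regulators were read in the fit across all genes. Their members were listed with earlier results known, and the types come from clusters of these same cells, so a call is not independent of the types. The filter on low counts also let in genes through their pituicyte sums alone, among them *Id4* and *Otx2*, and no p is given for them. The counts of called genes are therefore a description. Of 40 gliogenic genes 19 were tested, 8 (42.1%) were called higher in pituicytes and 1 lower, beside 16.8% and 0.953% of all genes tested, with a median log2 fold change of 0.75 beside 0.59 over all genes. The leading genes were *Id4* (log2 fold change 4.55, SE 0.78), *Hes1*, a Notch target (4.08, SE 0.35, edgeR adjusted p = 1.48e-28), and *Tead1*, a Hippo pathway factor (3.94, SE 0.75, adjusted p = 2.81e-06). *Hes1* stood at 751 and 698 CPM in pituicytes and 3.56 and 4.01 CPM in IL cells, and over both pools it was higher in vascular endothelia, at 1300 CPM, and stood at 561 CPM in epithelial-like cells. *Tead1* stood at 127 CPM in pituicytes over both pools, 88.5 CPM in IL cells and more, 179 CPM, in epithelial-like cells, and held 0 UMIs in T-cell like cells, vascular endothelia and VLMC. *Sox2*, *Nfix* and *Tcf7l2* were also higher in epithelial-like cells (281, 587 and 204 CPM) than in pituicytes (166, 382 and 108 CPM). *Olig1* and *Zbtb20* were highest in VLMC (1020 and 1360 CPM), against 65.4 and 1150 CPM in pituicytes. Of the 8 genes called higher, *Id4* alone had its highest level in pituicytes.

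*Id2*, an inhibitor of basic helix-loop-helix factors, was the gene called lower against the other 6 types (log2 fold change -6.13, SE 0.74, edgeR adjusted p = 5.92e-15). It held 1 UMI in pituicytes and 90 in IL cells, and was highest in T-cell like cells (762 CPM) and macrophage/microglia (529 CPM). Of its relatives in sequence, *Id4* had a fold change in the other direction, but passed the filter through its pituicyte sums alone. *Id1* held 2 UMIs in pituicytes and stood at 339 CPM in VLMC. *Id3* held 0 UMIs in pituicytes and stood at 1220 CPM in vascular endothelia. Neither *Id1* nor *Id3* was called.

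Of 48 hypothalamic genes 20 had 0 UMIs, 5 were tested and 2 were called higher, beside 16.8% of all genes. The median log2 fold change of those tested was 0.38, below the 0.59 of all genes. *Otx2*, a homeobox gene of the forebrain, held 47 of its 51 UMIs in pituicytes (log2 fold change 5.82, SE 0.91). *Meis2*, a TALE homeobox gene, stood at 144 and 162 CPM in pituicytes, held 0 UMIs in IL cells and stood at 1220 CPM in vascular endothelia (log2 fold change 4.51, SE 0.64, edgeR adjusted p = 7.86e-11). Of 23 pituitary genes 10 were tested, and 2 of them, *Otx2* and *Sox2*, were called higher, beside 16.8% of all genes, with a median log2 fold change of 0.12. *Nr4a1*, an immediate early gene, was called lower against the other 6 types (log2 fold change -2.83, SE 0.70, edgeR adjusted p = 5.44e-04). It stood at 17.0 and 31.6 CPM in pituicytes and at 661 and 545 CPM in IL cells.

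The genes whose level was most like each of the 10 were read over the 14 sums, which share libraries and mice, on log2(CPM + 100). A high r between genes found almost only in pituicytes follows from that pattern alone. The order among such genes is therefore not read. For *Rax* these were *Abca4*, *Ism2* and *Gpr50*, each with a Pearson r of 0.997. *Abca4*, *Slc4a4* and *Gpr50* were nearest to *Tbx3*, *Abca4*, *Gpr50* and *Slc4a4* to *Tbx3os1*, and *Fzd5*, *Gpr50* and *Ano1* to *Lhx2*. *Gria3*, *Lrrtm3* and *Scn7a* were nearest to *Nkx2-1*, and *Tmem44*, *Bcan* and *Col23a1* to *Lmo1*. *Gpr50*, an orphan receptor, stood at 89.1 and 90.7 CPM in pituicytes. It was among the 3 nearest genes of 4 of the 10. Nothing is read from this, since those 4 genes share the pattern.

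The nearest genes of the more widely found members were others. They were *Gstt1*, *Mlc1* and *Cdkn1c* for *Sox9*, *Timp3*, *Hes1* and *Yipf4* for *Nfib*, *Zcchc18*, *Map2* and *Chchd10* for *Six3*, and *Ube2q2*, *Oat* and *Tpm1* for *Nfia*, with the highest r between 0.891 for *Nfia* and 0.976 for *Sox9*. Among the 10 genes themselves, r was 0.99 between *Rax* and *Tbx3* and -0.07 between *Rax* and *Nfia*. The high r of *Rax* and *Tbx3* follows from both being found almost only in pituicytes.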

How the data were processed

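The authors deposited matrices of UMI counts, made with Cell Ranger on an mm10 reference with 1500 forced cells and not normalized. They also deposited mean values per cluster (UMIs per 10000 in each cell, averaged in Seurat). Per the submitters' notes, Cell Ranger 2.0.0 and Seurat 2.3 were among the tools. Cells needed over 1000 and under 10000 UMIs, over 400 and under 5000 genes, and less than 25% mitochondrial UMIs. The authors' 11 clusters were assigned to 528 cells by least squares on the deposited means and merged into 7 types. Doublets were not removed.

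Counts were summed per pool and type (14 sums of 8491 to 281271 UMIs) and tested with edgeR 4.0.16 (R 4.3.3, TMM, minimum count 5, minimum total 15, common dispersion 0.0378, 7 residual degrees of freedom), tested first on simulated data. The adjusted p is Benjamini-Hochberg over 4510 genes. The SE printed with an edgeR fold change was derived as its absolute value over the square root of the test's F value. It is rough where the other types held few UMIs. The pools pair the sums, because each pool is 1 set of mice and 1 library. Pool differences of 2 types correlated between -0.035 and 0.148 over 21 pairs of types.

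Intervals are exact (Poisson or Clopper-Pearson, 95%) and cover counting error only. The members and the lists were chosen with earlier results of these data known. Named were all 10 members, the called genes of each list with the 3 largest changes in each direction, paralogs with at least 20 UMIs and the 3 nearest genes of each member. A paralog that this rule names is not reported here. Genes named in other sentences, among them *Gm11266*, were chosen after their values were seen.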

Additional observations from a re-analysis of the deposited data

How the results depend on the processing

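Of the counts of called genes, those against the other types (756 higher, 43 lower) and against IL cells (452 and 303) stayed within 1.5 times with library size alone and with the replicate block (pool), which gave 727, 37, 437 and 293 and changed no call of the 10 genes. TMM put the median log2 fold change of all genes at 0.595 and library size alone at 0.394. DESeq2 gave 215 higher and 72 lower against the other types, 144 and 87 against IL cells, 4 and 2 in the gliogenic list, 1 higher in the hypothalamic list and 1 higher in the pituitary list. DESeq2 with poscounts size factors gave 358 higher against the other types, 163 and 94 against IL cells, 2 lower in the gliogenic list and 1 higher in each of the other lists. That version had been run first. The default size factors, which the plan names, replaced it once its count had been seen, and both are given. DESeq2 left *Rax*, *Tbx3*, *Lhx2* and *Nkx2-1* uncalled against the other types with either size factors, and gave no adjusted p for *Lhx2* against IL cells with the default. Without the filter on low counts there were 2017 higher against the other types, 733 and 631 against IL cells and 7 higher in the hypothalamic list. With a mitochondrial share under 10% there were 215 and 7 against the other types, 165 and 115 against IL cells, 3 higher in the gliogenic list, 1 in the hypothalamic, and 1 higher and 0 lower in the pituitary list.

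Without replicate 1 or without replicate 2, there were 410 to 414 higher and 19 to 29 lower against the other types, 170 to 177 higher and 126 to 127 lower against IL cells, and 1 higher in both the hypothalamic and the pituitary list. The gliogenic list had 6 to 8 higher. These fits left out only the pituicyte and IL sums of the named replicate, while the other types kept both pools. They are therefore not fits of 1 pool alone. With 1 sum left for pituicytes and 1 for IL cells, nothing is read from their counts of called genes. The *Nfia* fold change against the other types turned to -0.03 with library size alone and to -0.06 with DESeq2, and that of *Six3* against IL cells to -0.07 with a mitochondrial share under 10%. The cause of these changes was not tested.

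The mean number of the 10 genes per thinned pituicyte, 3.32 over the pools, was 5.65 unthinned, 3.56 with another thinning seed, 3.00 with a mitochondrial share under 10% and 3.20 to 3.43 with 1 pool left out. The share of barcodes with pituicyte markers that held a member was 77.5% with at least 2 marker UMIs and 93.3% with at least 5 in pool 1, and 87.9% with at least 5 in pool 2. The 2 pools and sums as small as 8491 UMIs limit what could be detected in vascular endothelia and VLMC.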
